A study of Mus musculus with 2 samples.

Results

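Immunoglobulin heavy chain and B lineage genes were examined in ALL211, a mouse leukemia of the T-cell lineage (T-ALL). ALL211 is 1 primary leukemia, so other leukemias are not represented. The 9 genes were chosen by name, as rows of the deposited count table whose Entrez identifier maps to Ighm, Ighd, Igha, Jchain, Cd79a, Cd79b, Ms4a1, Pax5 or Ebf1. All 9 were found among the 27179 genes of the table. The question was whether Ighm transcripts came with the other B lineage genes in each library. ALL211 carries Vav-tTA and TRE-GFP-shIkaros, so that a transactivator under a promoter of blood cells drives a hairpin against Ikaros linked to GFP, and doxycycline (Dox) shuts both off. Leukemia cells were sorted by flow cytometry from the spleens of leukemic recipient mice, which keep their own blood cells. The untreated group is 1 library of GFPhigh cells. The Dox group is 1 library of GFPmid cells from animals given Dox for 3 days. The series design names 2 mice per condition, and the sources used here do not say whether their RNA was pooled.

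An antibody heavy chain gene is assembled in B cell precursors by joining V, D and J segments upstream of the constant region Ighm. Ighd follows Ighm and is reached by alternative splicing of the same transcript, whereas Igha is used after class switching. The B cell receptor pairs the heavy chain with a light chain and with the signal transducers Cd79a and Cd79b, and the transcription factors Ebf1 and Pax5 establish B cell identity. T-lineage cells are known to make germline transcripts of Ighm, which start near the enhancer between the J segments and Ighm or just upstream of the D segment Ighd4-1 and hold no V segment.

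Ighm counts were abundant in both libraries while the other B lineage members were nearly absent from the untreated library. The sequences below are those the heavy chain and kappa counts turn on: the first 300 bases of the first constant exon of Ighm, the D segment and the J segments nearest to it, and the heavy and kappa V segments that held most V counts of the Dox library, by their last 150 coding bases. They are reference sequences of GENCODE release M21 (GRCm38, the mm10 assembly), all on the minus strand and written 5′ to 3′. Capitals mark the conserved WGXG motif of the J segments (TGGGG, any 4 bases, GG and any base, searched on the coding strand), found in 4 of 4, and the last in-frame cysteine codon in the V segments. The Ighm exon lies at chr12:113422431-113422730, Ighv1-81 at chr12:115920279-115920428 and Igkv10-96 at chr6:68631963-68632112.
Ighm exon 1: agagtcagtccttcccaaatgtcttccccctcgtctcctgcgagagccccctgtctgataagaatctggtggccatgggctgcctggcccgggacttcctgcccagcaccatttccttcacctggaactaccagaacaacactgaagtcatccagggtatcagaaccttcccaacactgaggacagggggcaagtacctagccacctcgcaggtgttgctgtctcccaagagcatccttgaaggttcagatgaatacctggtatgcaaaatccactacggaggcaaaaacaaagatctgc
Ighd4-1: ctaactgggac
Ighj1: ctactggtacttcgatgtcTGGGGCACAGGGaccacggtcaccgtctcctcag
Ighj2: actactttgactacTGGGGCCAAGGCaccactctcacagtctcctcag
Ighj3: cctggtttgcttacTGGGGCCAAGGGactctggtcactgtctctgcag
Ighj4: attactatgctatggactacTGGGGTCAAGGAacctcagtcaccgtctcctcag
Ighv1-81: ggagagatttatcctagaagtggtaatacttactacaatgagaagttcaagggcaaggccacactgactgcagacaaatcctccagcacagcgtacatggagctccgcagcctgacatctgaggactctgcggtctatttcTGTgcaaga
Igkv10-96: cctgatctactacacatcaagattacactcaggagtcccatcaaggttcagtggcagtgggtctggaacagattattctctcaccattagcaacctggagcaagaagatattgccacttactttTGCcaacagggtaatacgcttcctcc

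The untreated library held 16960042 counts and the Dox library 16484613 counts. Each condition had 1 library, so differences could not be checked against replicates and no p-values were computed. Intervals are 95% intervals that cover counting error only, and reads that are PCR copies are not independent molecules. Treatment, sorting gate and animals all differed between the libraries and cannot be told apart, and Dox in cells without the hairpin was not analysed here. The hairpin's target Ikzf1 stood at 120.5 CPM (counts scaled to a common library total) without Dox and at 1229 CPM with Dox, a ratio of 10.2 in the direction the label gives. All 16 defining T cell markers were above 1 CPM in both libraries, with summed levels of 11376 and 14018 CPM. In bulk RNA, fewer cells of a type and less RNA per cell cannot be told apart.

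Ighm (Entrez 16019; GRCm38 chromosome 12, 113418826 to 113422730), the constant region of IgM, had 5914 counts without Dox and 15529 with Dox. These are 346.4 and 948.2 CPM, a 2.74-fold higher level with Dox (interval 2.66 to 2.82; log2 fold 1.45). Per kilobase of the deposited gene length, it stood at 232.4 CPM without Dox and 635.9 CPM with Dox. On that scale it ranked 358 without Dox and 98 with Dox among the 12125 genes that reached 1 CPM in a library. Ighm was 1.81 times the level of Cd3e, a chain of the T-cell receptor complex, per kilobase in the untreated library and 3.54 times in the Dox library. Other chains of that complex differed. Cd3g (637.3 and 930.3 CPM per kilobase) and Cd3d (442.5 and 682.1) stood above Ighm in both libraries, and Cd247 (84.8 and 169.4) below it. Ighm was 0.417 and 1.23 times the level of Lck, and 1.95 and 2.99 times that of Cd4. The deposited length of 1491 bases is within 1 base of the 1492 bases of coding exons and stop codons of the secreted and membrane forms together, so the counts do not tell these forms apart.

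The other heavy chain members were far lower. Ighd (Entrez 380797; chromosome 12, 113407535 to 113416324), the constant region of IgD, had 9 counts without Dox and 68 with it (0.527 and 4.15 CPM), a ratio of Dox to untreated of 7.88 (interval 3.91 to 18.0). Igha (Entrez 238447; chromosome 12, 113256204 to 113260236), the constant region of IgA, had 0 and 242 counts (14.8 CPM with Dox), at least 84.1-fold higher when the 0 is set to a floor of 3 counts. A count of 0 allows up to 0.176 CPM without Dox and 0.183 CPM with Dox. Jchain (Entrez 16069; chromosome 5, 88519809 to 88527897), the joining chain of secreted IgM and IgA, had 0 and 34 counts, at least 11.8-fold higher. Igha and Jchain were thus seen in the Dox library alone.

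The receptor partners and the B cell surface gene were at the limit of detection. Cd79a (Entrez 12518; chromosome 7, 24897497 to 24901858) had 6 counts without Dox and 12 with it, and Cd79b (Entrez 15985; chromosome 11, 106311341 to 106314562) had 2 and 12. The ratio of Dox to untreated was 2.08 for Cd79a (interval 0.724 to 6.77) and 6.25 for Cd79b (interval 1.39 to 57.5), so a difference in Cd79a was not detectable at this depth. Ms4a1 (Entrez 12482; chromosome 19, 11249679 to 11266149), which encodes the surface protein CD20, had 0 and 10 counts, at least 3.47-fold higher with Dox. Pax5 (Entrez 18507; chromosome 4, 44524748 to 44710694) and Ebf1 (Entrez 13591; chromosome 11, 44618100 to 45008096) had 0 counts in both libraries.

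Of the 9 members, 4 reached 1 CPM in at least 1 library (Ighm, Ighd, Igha and Jchain), and with Dox all 4 were higher by 2-fold or more. Of all 12125 genes above that minimum, 13.6% were higher by as much, and 1581 were lower by as much. Ighd, Igha and Jchain passed through the Dox library alone, so they had to be higher there and their count supports nothing. Ighm was the 1 member above 1 CPM in the untreated library, where 9.67% of 11477 genes were higher by 2-fold or more. The other 5 members, Cd79a, Cd79b, Ms4a1, Pax5 and Ebf1, stayed below 1 CPM in both libraries.

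**Figure D1:**
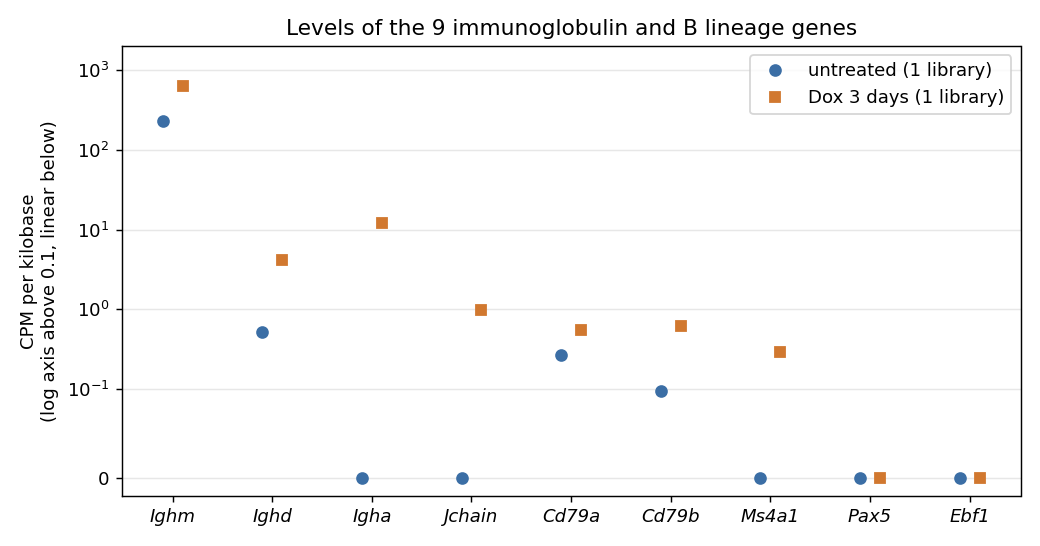
Level of each of the 9 genes, as CPM per kilobase of the deposited gene length (log axis above 0.1, linear below), in the untreated library (circles) and the Dox library (squares), 1 library each. Ighm stands at 232.4 and 635.9, while Igha, the next member in the Dox library, stands at 12.1 and Pax5 and Ebf1 at 0 in both.

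Ratios within a library need no scaling between libraries. In the untreated library the 8 other members together held 17 counts beside 5914 of Ighm, and Ighm was 262 times their summed counts per kilobase (interval 164 to 451). In the Dox library they held 378 counts beside 15529 of Ighm, and Ighm was 34.1 times their sum (interval 30.8 to 37.9). The other members thus made up more of the total in the Dox library, 8.47 times their untreated count relative to Ighm (interval 5.21 to 14.7). Igha gave 242 of those 378 counts.

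Relative to Ighm, the members differed among themselves. Igha was at 0 in the untreated library and at 19.0 per 1000 of Ighm, per kilobase, in the Dox library. Ighd was at 2.25 and 6.48 per 1000 of Ighm per kilobase, a change of 2.88 times in its counts relative to Ighm (interval 1.43 to 6.56). Cd79a and Cd79b together were at 1.56 and 1.83 per 1000 of Ighm per kilobase, with a change of 1.14 times in counts relative to Ighm. The interval of that change, 0.496 to 2.94, covers both no change and a sizeable gain, so the receptor partners cannot be said to have kept pace with Ighm or to have lagged. Against Pax5 the Ighm level per kilobase was at least 1597 times higher in the untreated and at least 4194 times in the Dox library, and against Ebf1 at least 2972 and 7804 times, each computed at the floor of 3 counts.

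Variable segments were scarce beside Ighm. Over 120 heavy chain V segments the untreated library held 1 count and the Dox library 88. Of the 88, 79 lay on Ighv1-81 (89.8%, Wilson interval 81.7% to 94.5%), and the remaining 9 were spread over 6 segments with 1 or 2 each. Per kilobase this is 0.0840 of V for every 100 of Ighm in the untreated library (interval 0.00213 to 0.468) and 2.86 in the Dox library (interval 2.29 to 3.53). V segments resemble each other in sequence, and the sources used here do not say how reads with several alignments were counted.

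The same ratio was computed for the T-cell receptor beta genes and the kappa light chain, a comparison chosen after the values were seen. Whether any of these transcripts is rearranged was not tested. T-cell receptor beta V segments held 85.7 per 100 of the constant genes per kilobase in the untreated and 92.3 in the Dox library, with Trbv19 carrying 98.5% and 98.9% of V counts. Igkc, the kappa constant region, went from 0 to 107 counts, at least 37.2-fold higher. Kappa V segments had 3 and 117 counts, and in the Dox library 111 of the 117 lay on Igkv10-96 (94.9%, Wilson interval 89.3% to 97.6%). There kappa V stood at 101 per 100 of Igkc per kilobase (interval 77.3 to 133), against 2.86 per 100 for heavy V beside Ighm. Set beside Igha in place of Ighm, the heavy V counts of the Dox library came to 151 per 100 per kilobase (interval 117 to 193). Which constant region each V count belonged to cannot be read from gene counts. Lambda constant genes held 0 counts without Dox, and 16 on Iglc3 and 3 on Iglc2 in the Dox library.

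**Figure D2:**
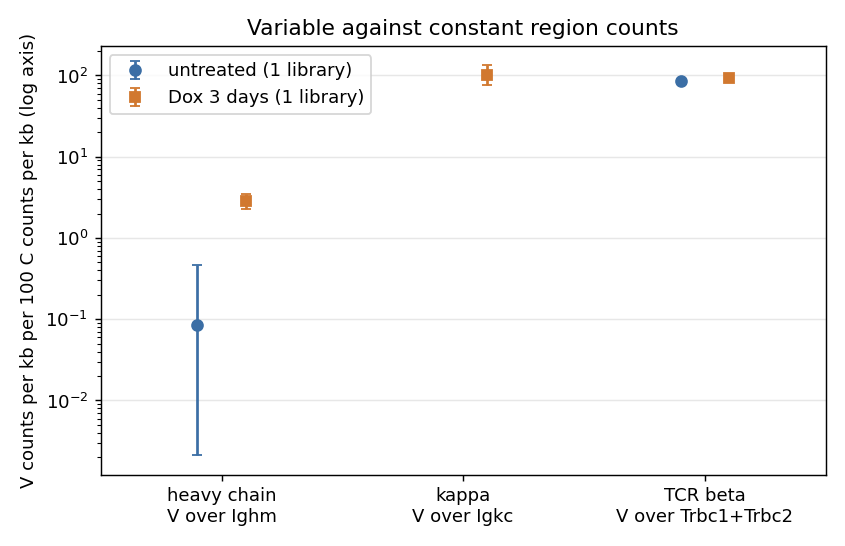
Counts per kilobase on V segments for every 100 per kilobase on the constant region (log axis), for the heavy chain over Ighm, kappa over Igkc and T-cell receptor beta over its constant genes. Points are single libraries and bars 95% counting intervals; the untreated kappa value is missing because Igkc had 0 counts, and the heavy chain lies at 0.0840 and 2.86 while T-cell receptor beta lies at 85.7 and 92.3.

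D and J segments are very short, 11 bases for Ighd4-1 and 48 to 54 bases for the J segments printed above. Ighj1 had 2 counts without Dox and 6 with it, and Ighj4, which lies 5783 bases upstream of Ighm, had 0 and 11. Ighj2 and Ighj3 each had 0 and 2 counts. Ighd4-1, 694 bases upstream of Ighj1, had 0 and 11 counts, and among the 9 other D segments a single count was found, on Ighd2-4 in the Dox library. Per kilobase, Ighd4-1 stood at 61.1 CPM and Ighj4 at 12.4 CPM in the Dox library, against 635.9 CPM for Ighm and 12.1 CPM for Igha. With at most 11 counts on such short segments, these levels are imprecise. A read can be longer than such a segment and still be counted on it, so dividing by its length can overstate the level. The segment values are therefore not comparable with those of Ighm or Igha. In counts, Ighd4-1 had 11 in the Dox library against 242 of Igha.

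Along the locus, Ighm had the highest CPM of the heavy chain genes in both libraries. Of the other constant regions between Ighd and Igha, Ighg2b had 0 and 3 counts, Ighg1 0 and 1, and Ighe, Ighg2c and Ighg3 0 in both libraries. The nearest measured gene downstream that is not a heavy chain gene, Tmem121, lies 229302 bases from Ighm and went the other way, from 9.96 CPM without Dox to 1.59 CPM with it. Crip1, which encodes a small LIM domain protein, was at 248.1 and 430.2 CPM. Adam6b, a testis gene that lies among the D segments, between Ighd1-1 and Ighd3-1, had 2 and 30 counts. Of 7 genes within 300000 bases that are not heavy chain genes, 6 reached 1 CPM, with Adam6b the 1 higher and Tmem121 the 1 lower by 2-fold or more. Adam6b reached 1 CPM in the Dox library alone, so it had to be higher there. Among all 12125 genes that reached 1 CPM in a library, 13.6% were higher and 1581 were lower by as much. With 6 genes, counts of 1 cannot be told apart from those of all genes. Tmem121, Crip1 and Adam6b were named after their values were seen.

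**Figure D3:**
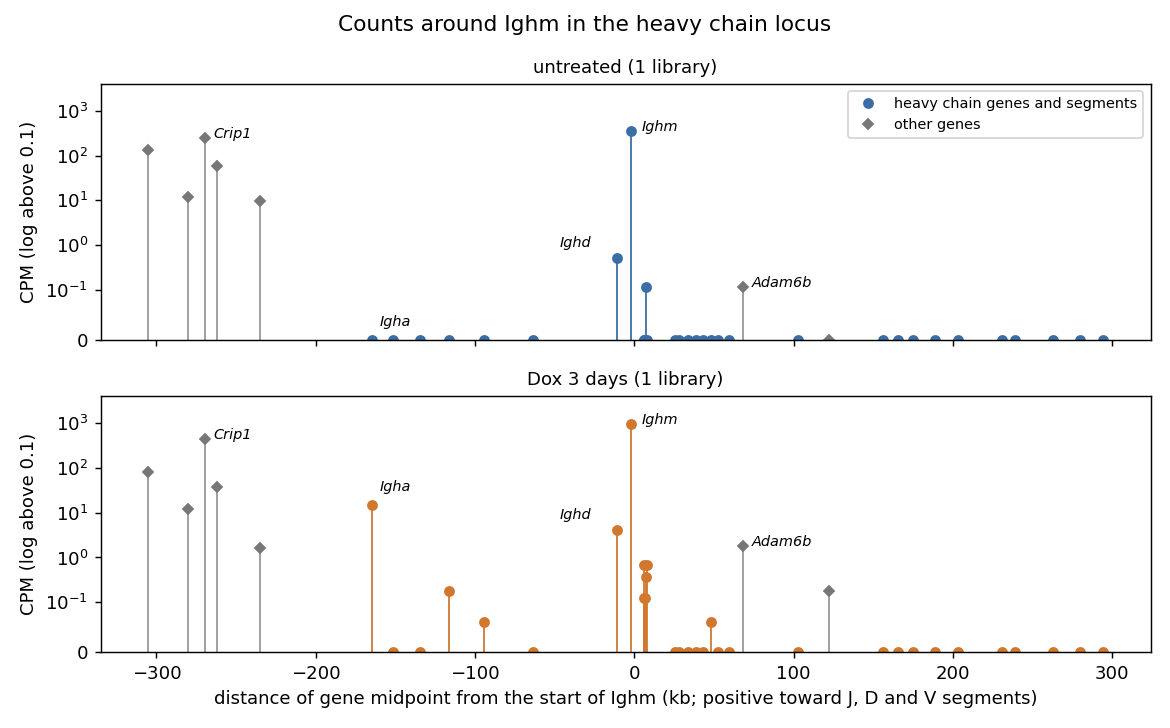
CPM (log axis above 0.1, linear below) of each counted gene or segment by the distance of its midpoint from the start of Ighm in kilobases, untreated above and Dox below, 1 library each. Circles are heavy chain genes and segments and diamonds other genes; Ighm reaches 346.4 and 948.2 CPM, and Igha goes from 0 to 14.8 CPM.

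Other genes of the B lineage were taken from lists of other heavy chain constant, light chain, surrogate light chain, surface, signalling, transcription factor and plasma cell genes. Over their 57 genes, 32 reached 1 CPM in a library, of which 18 were higher with Dox by 2-fold or more and 2 were lower (median log2 fold 1.49, against -0.01 over all genes). Of the 20 that reached 1 CPM in the untreated library, 7 were higher by that much and 2 lower, with a median of 0.29. Whether the leukemia cells themselves express these 20 genes was not tested. Over all genes, 13.6% were higher by 2-fold or more among those that reached 1 CPM in a library, and 9.67% were higher and 13.8% lower among those that did so in the untreated library. A gene that reached 1 CPM in the Dox library alone had to be higher there, so the counts over either library support nothing for such genes. Of 16 B cell surface genes, 7 were measured, 5 of them at least 2-fold higher and 1 lower, and of the 5 that reached 1 CPM in the untreated library 3 were higher and 1 lower. Cd37, a tetraspanin of lymphocytes, was at 68.7 CPM without Dox and 185.0 CPM with it. Cd180, a Toll-like receptor homologue of B cells and myeloid cells, had 6 and 102 counts, and Fcrla 3 and 33, both above 1 CPM in the Dox library alone. Ly6d, a surface protein of early lymphoid and B lineage cells, was 3.99-fold lower with Dox (290.8 and 73.0 CPM), and was the 1 lower member.

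Signalling genes downstream of the B cell receptor were mostly found in the Dox library. Of 9 genes, 7 were measured and 6 were at least 2-fold higher (median 3.20), but those 6 reached 1 CPM in the Dox library alone. Lyn, a Src family kinase, had 4 and 113 counts, Plcg2, a phospholipase, 2 and 69, and Pik3ap1, an adaptor for PI3K, 6 and 69. Syk, the kinase that binds Cd79a and Cd79b, had 0 and 68 counts, at least 23.6-fold higher. Myeloid and dendritic cells use these genes as well. Ralgps2 was at 86.6 and 135.6 CPM.

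Of 13 transcription factor genes, 12 were measured, 6 of them higher by 2-fold or more and 1, Irf4, lower (median 1.24). Of the 10 that reached 1 CPM in the untreated library, 4 were higher and 1 lower, with a median of 0.59. Among all genes that did so, 9.67% were higher and 13.8% lower by as much. Spi1, which encodes PU.1 of myeloid and B cells, had 4 and 96 counts and Spib, a related factor of B cells and plasmacytoid dendritic cells, 2 and 71, both above 1 CPM in the Dox library alone. Irf8, a factor of B cells and dendritic cells, was at 3.92 and 31.0 CPM. Foxo1 was at 99.0 and 332.3 CPM. Tcf3, the E protein gene that acts upstream of Ebf1, was at 259.6 and 234.3 CPM, and Ikzf3, which encodes Aiolos, at 266.7 and 509.4 CPM. 

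Of 8 plasma cell genes 6 were measured, 0 were higher by 2-fold or more and 1 was lower (median 0.22). Among all 12125 genes that reached 1 CPM in a library, 13.6% were higher and 1581 were lower by as much. With 6 genes, the counts of plasma cell genes cannot be told apart from those of all genes. Xbp1, a factor of antibody secretion, was at 40.5 and 50.6 CPM, Sdc1, which encodes CD138, at 43.6 and 22.7 CPM and Irf4, the 1 lower gene, at 49.9 and 19.7 CPM. Prdm1, which encodes Blimp-1, had 16 and 20 counts, and Pou2af1, a coactivator of immunoglobulin promoters, was at 38.1 and 45.3 CPM. The surrogate light chain genes, which B cell precursors use, were low: Vpreb3 had 27 and 20 counts, Vpreb1 14 and 14, Vpreb2 2 and 2 and Igll1 0 and 0.

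Summed levels of the marker lists of other cell types were also higher in the Dox library. In each list, a marker that reached 1 CPM in the Dox library alone had to be higher there. Over all genes, 13.6% were higher by 2-fold or more among those that reached 1 CPM in a library. Among those that did so in the untreated library, the share was 9.67%. Of 8 conventional dendritic cell markers 5 were measured, all 5 through the Dox library alone, so that they had to be higher there, with summed levels of 1.11 and 43.2 CPM, and 5 of the 8 had 0 counts in the untreated library, Clec9a (0 and 129 counts), Zbtb46, Batf3, Clec10a and Cd209a. Of 8 plasmacytoid dendritic cell markers 7 were measured and 4 were higher, but of the 4 that reached 1 CPM in the untreated library 1, Ccr9, was higher and their median log2 fold was -0.02, with sums of 633.1 and 2011 CPM, of which Ccr9, also a T cell gene, made 506.8 and 1865 CPM. Siglech and Klk1 were at 0 counts in the untreated library and at 101 and 44 in the Dox library. Of 14 macrophage markers 12 were measured and 12 were higher, 6 of them above 1 CPM in the untreated library. Their list summed to 74.4 and 354.3 CPM, of which Itgam made 60.6 and 181.0 CPM. Cd14 was at 0 in the untreated library. All 11 MHC class II genes, which B cells share with dendritic cells and macrophages, were measured and 8 were higher, 4 of them above 1 CPM in the untreated library, with sums of 71.5 and 748.4 CPM, 0 of them at 0 counts. Of 9 erythroid markers 7 had a row, and all 7 were higher, 4 of them above 1 CPM in the untreated library, with sums of 10.8 and 77.9 CPM. The part of these cell types in the B lineage values was not tested.

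**Figure D4:**
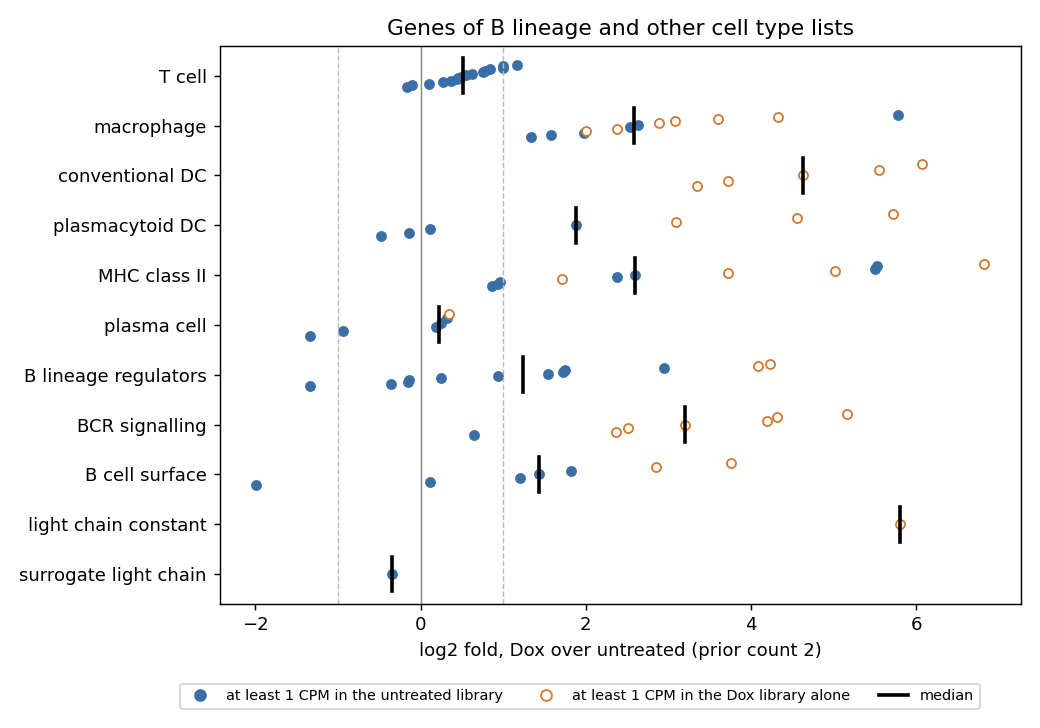
Log2 fold of Dox over untreated (prior count 2) for each gene that reached 1 CPM in a library, by gene list, with bars at the medians and dashed lines at 2-fold. Filled points reached 1 CPM in the untreated library and open points in the Dox library alone; the signalling genes of the B cell receptor are open except Ralgps2, and plasma cell genes centre on 0.22.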

How the data were processed

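The authors deposited raw read counts per gene, by Entrez identifier with a gene length column. Per the submitters' processing notes, the reads came through CASAVA 1.8.2 and were counted by featureCounts on mm10. The sources used here do not state the aligner, the strand setting or the annotation. By their whole spans, Ms4a1 and Pax5 overlap other counted genes, 4930526L06Rik and Mir5120. Overlap of exons was not checked, and any shared reads cannot be told apart. Pax5 had 0 counts in both libraries. Symbols and coordinates came from the RefSeq table of GRCm38, which named 25275 of 27179 genes, and 0 columns were left unassigned. The whole table was scaled to CPM by edgeR 4.0.16 (R 4.3.3), whose TMM factors were 1.01 and 0.994. Genes with at least 1 CPM in 1 library were kept, and log2 folds use a prior count of 2. Ratios have exact conditional 95% intervals, and shares Wilson intervals. With 1 library per condition no test was run. Totals of 16960042 and 16484613 counts set the precision. Alternatives covered scaling (also DESeq2 1.42.0), prior counts, filters, thinning, thresholds and the genes set beside Ighm. The steps were tested on simulated counts. Named genes are the 9 members, Ikzf1, the other heavy chain constant genes and, per list, up to 3 with the highest CPM and up to 3 with the largest log2 fold. The other genes named were chosen after their values were seen. Among them are receptor segments, Cd3e, Cd3d, Cd3g, Cd4, Igll1 and list markers at 0 counts in the untreated library. Those markers include Zbtb46, Batf3, Clec10a, Cd209a and Cd14. The members and lists were chosen with earlier results of these data known. Python 3.11.15 with scipy 1.17.1 was used.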

Additional observations from a re-analysis of the deposited data

How the results depend on the processing

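All 7 members with a fold kept its direction under every alternative run. Log2 folds were 1.43 to 1.48 for Ighm and 2.43 to 2.91 for Ighd. Folds of genes at 0 were taken at their bound, so Igha, Jchain and Ms4a1 could not change direction. The scaling alternatives shifted folds little, so the kept directions add no evidence of a difference, for Cd79a among others. Filters moved counts by construction, since they change how many genes are tested. With at least 1 count in place of 1 CPM, 7 members were measured, 29 genes of the B lineage lists were at least 2-fold higher and 2993 of all genes were. With at least 5 CPM, 2 members were measured and 2 were higher, but Igha passed through the Dox library alone and had to be. At that filter 10 list genes were higher with a median of 1.18, and 1091 of all genes were higher. Without the numbers of genes tested, the counts under these filters give no shares. At a 4-fold threshold 541 genes were higher and 372 lower. With the counting interval wholly beyond 2-fold, 1105 genes were higher and 1016 lower. The factor by which Ighm exceeded other members depended on which were counted: it was 641 in the untreated and 546 in the Dox library beside Cd79a and Cd79b only, 641 and 260 without Ighd and Igha, and 41.1 in the Dox library on counts not taken per kilobase. No paired analysis was possible because each condition had 1 library, and no library could be left out for the same reason. Depth limits Cd79a, Cd79b and Ms4a1, which had at most 12 counts.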
